A study of Mus musculus with 2 samples.

Results

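The keratin genes of the mouse were examined in open chromatin of the thymus. Every protein-coding gene of the GENCODE M21 annotation on chromosomes 11 and 15 whose symbol is Krt followed by a digit was taken, without the keratin-associated protein genes (Krtap). That gave 53 keratin genes, 27 on chromosome 11 and 26 on chromosome 15, of 21701 protein-coding genes of the autosomes and chromosome X. Of them, Krt5, Krt8, Krt14 and Krt18 are the 4 keratins in general use as markers of thymic epithelium, and the remaining 49 were set beside them. The rule goes by symbol and chromosome and uses no measured value, although the family was picked for description with earlier results of these data known.

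Chromatin was assayed by DNase-seq, which sequences the ends left where DNase I cuts accessible DNA in nuclei. The tissue was whole thymus of 2 female B6CASTF1/J mice, 14 days old, the first generation of a cross between C57BL/6J and CAST/EiJ. The labels call them biological replicates 1 and 2 and give them different animal numbers but 1 donor identifier, so whether they are separate animals rests on the animal numbers. Both belong to 1 untreated group with no mutant, treated or control group, and each result is therefore a description given for both replicates, with no test between groups. Replicate 1 had 97051 peaks and replicate 2 had 108010, and the sources used here do not give the read depth.

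Keratins are the intermediate filament proteins of epithelial cells. Type I keratins, acidic and encoded mainly on mouse chromosome 11, pair with type II keratins, neutral to basic and encoded on chromosome 15, and neither kind forms a filament alone. KRT8 and KRT18 are the pair of simple epithelia and of cortical thymic epithelium, KRT5 and KRT14 the pair of basal stratified epithelia and of much of the thymic medulla, and other pairs belong to the upper epidermis, the hair and its root sheath. Krt18 is the exception in position, a type I gene that lies next to its partner Krt8 on chromosome 15. In whole thymus, thymocytes far outnumber epithelial cells. A site strongly open in few cells and a site weakly open in many can give the same weak peak and cannot be told apart.

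The labelled tissue was checked against marker lists. All 12 thymocyte markers had a promoter peak, that is, a peak with at least 1 bp within 500 bp of an annotated transcription start site (TSS), in both replicates. Of 15 thymic epithelial markers other than keratins, 9 did, among them Ccl25, a chemokine of thymic epithelium, and Ly75, a surface receptor of cortical epithelium. Foxn1, which encodes the defining transcription factor of these cells, and Psmb11, which encodes the proteasome subunit of the thymic cortex, had none. The share of that list, 60%, was close to the 58.6% of all protein-coding genes. None of 10 skin keratinocyte markers had a promoter peak in either replicate, and 4 of 10 endothelial and mesenchymal markers had one in both.

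Nearly all keratin promoters lacked a peak. A promoter peak was present in both replicates at 2 of the 53 keratin genes (3.77%), whereas 58.6% of all protein-coding genes had one. These genes were Krt18 and Krt10. Thymic epithelial keratins contributed 1 of 4 (Krt18), and the other keratins 1 of 49 (Krt10). In replicate 1 alone, promoter peaks were present at 4 keratins, the additional ones being Krt25 and Krt7, against 60.4% of all genes. In replicate 2 alone there were 2, against 61.4% of all genes.

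The distance from each keratin TSS to the nearest peak was also taken. Of the 51 keratins without a promoter peak in both replicates, 1 had a peak within 2000 bp of a TSS in both, and this was Krt8. Its nearest peak lay 1008 bp away in replicate 1 and 1014 bp away in replicate 2. For 37 of the 51, the farther of the nearest peaks of both replicates lay more than 10 kb away, with a median over the 51 of 24.2 kb. The greatest such distance was 91.9 kb, at Krt6b, a keratin of wounded and mucosal epithelium, whose nearest peak in replicate 2 was 23.9 kb away. These distances were not taken for other genes, so they have no background here. The 51 were selected for lacking a promoter peak in both replicates, and that alone leaves out the shortest distances.

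**Figure D1:**
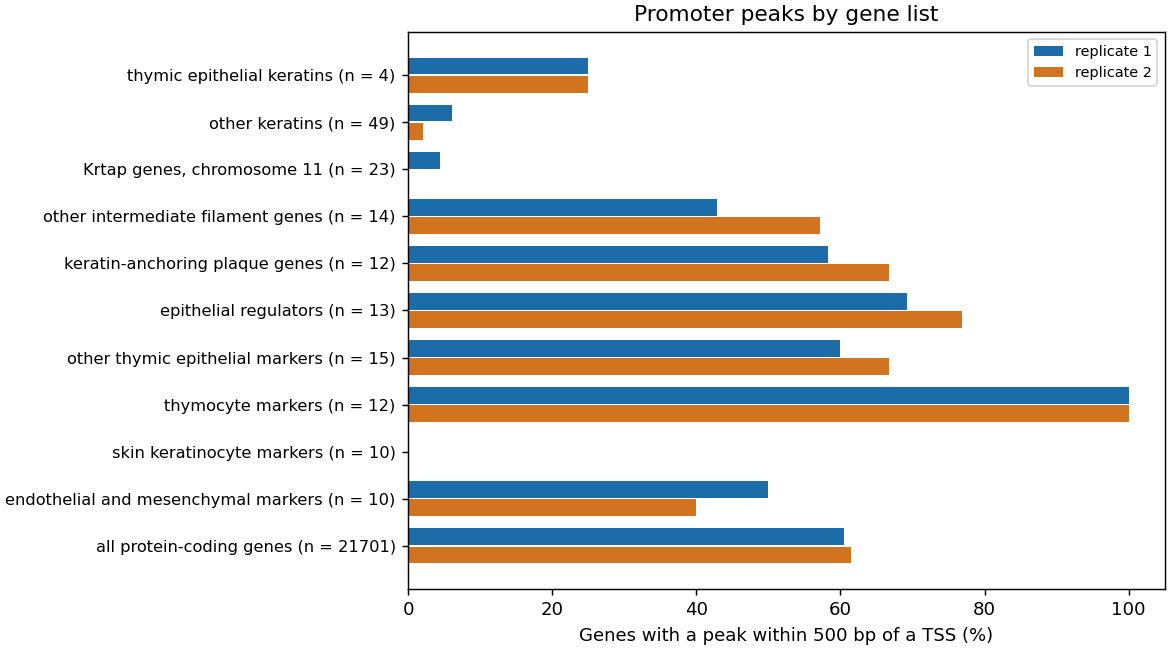
Percentage of genes of each list with a peak within 500 bp of a TSS, with replicate 1 above replicate 2 in each pair of bars and the number of genes in brackets. Thymic epithelial keratins stand at 25% in both replicates and other keratins at 6.12% and 2.04%, while thymocyte markers stand at 100% and all protein-coding genes at 60.4% and 61.4%.

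Krt18, a type I keratin of simple epithelia, had a promoter peak of strength 0.561 in replicate 1 and 0.662 in replicate 2, where strength is the signal the authors deposited for a peak. It was a weak promoter. It exceeded 9.82% of the 13114 genes with a promoter peak in replicate 1 and 14.1% of the 13329 in replicate 2, whose median strengths were 5.80 and 3.74. The peak lay at chr15:102028101-102028460 in replicate 1 and chr15:102028121-102028460 in replicate 2 (mm10, 1-based), on the TSS and the first coding exon. The lowest false discovery rate of cutting listed within 500 bp of the TSS was 2.8e-05 and 4.7e-09, and 378 and 444 bases there were listed under 0.05.

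Footprints, short stretches protected from cutting, were found downstream of the Krt18 TSS in both replicates. Replicate 1 had 2 and replicate 2 had 5 in the peak. Both footprints of replicate 1 were met by footprints of replicate 2, over bases 153 to 161 and 229 to 234 after the TSS, inside the coding sequence. Replicate 2 also had a footprint from 19 to 11 bp before the TSS that replicate 1 lacked. The coding bases of the peak, chr15:102028279-102028460 on the plus strand, are shown with the shared footprint bases in capitals, because these are the protected bases of a thymic epithelial keratin start that both replicates hold.
Krt18 coding bases: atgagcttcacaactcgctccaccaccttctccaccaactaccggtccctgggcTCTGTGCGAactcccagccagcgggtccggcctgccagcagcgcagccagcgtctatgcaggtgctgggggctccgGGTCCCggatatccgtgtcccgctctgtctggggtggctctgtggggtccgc

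**Figure D2:**
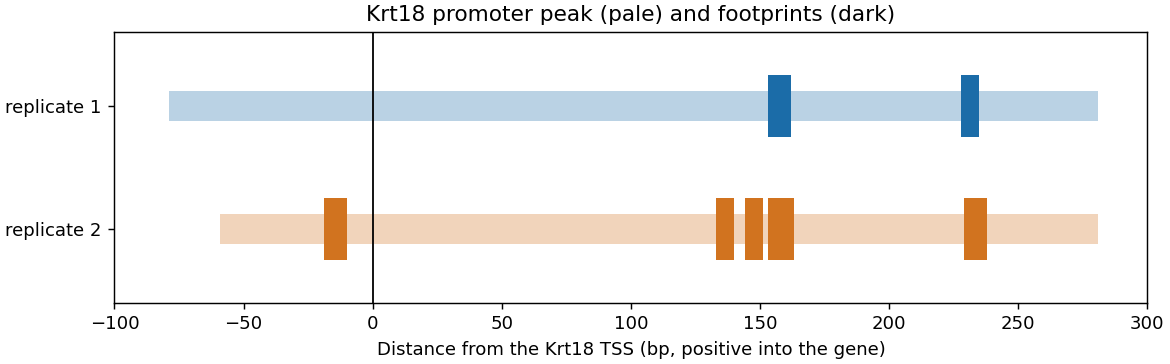
Extent of the Krt18 promoter peak (pale) and its footprints (dark) in replicate 1 (upper row) and replicate 2 (lower row), by distance from the TSS in bp. The footprints at about 153 and 229 bp coincide in both rows, and the one before the TSS is seen in replicate 2 alone.

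Krt10, the type I keratin of the differentiating epidermis, had the stronger promoter peak, 3.51 in replicate 1 and 1.84 in replicate 2, above 36.7% and 30.2% of promoters with a peak. The position of that peak differs from the start of the full-length gene. It lay at chr11:99385941-99386180 in replicate 1 and chr11:99385921-99386260 in replicate 2, in coding exon 7 of 8, and met the criterion because a short second transcript is annotated to start there, at base 99386097, for which the annotation lists no start codon. No peak lay within 500 bp of the outermost Krt10 TSS at base 99389364. With outermost TSSs alone, 1 keratin (Krt18) had a promoter peak in both replicates, against 55.1% of all genes.

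The exon peak of Krt10 is printed on the gene's strand, which is minus, to show the glycine-rich repeat of the protein's tail that it covers. Capitals mark bases in footprints of both replicates. It has a GC content of 72.1% and a ratio of observed to expected CpG of 1.19 in replicate 1, and 71.5% and 1.22 over the wider peak of replicate 2. Of its 32-base words, 85.7% and 87.1% occur once in the genome. All 40 words of the wider peak of replicate 2 that occur more often recur inside that peak only.
Krt10 exon 7 peak: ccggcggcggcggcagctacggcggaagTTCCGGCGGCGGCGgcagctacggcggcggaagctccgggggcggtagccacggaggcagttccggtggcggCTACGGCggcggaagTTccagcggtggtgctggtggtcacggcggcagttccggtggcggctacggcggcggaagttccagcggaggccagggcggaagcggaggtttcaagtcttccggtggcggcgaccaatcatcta

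Krt25 and Krt7 were at the edge of detection. Krt25, a keratin of the inner root sheath, had a promoter peak of 0.255 in replicate 1, above 1.57% of promoters with a peak, and its nearest peak in replicate 2 was 11851 bp from the TSS. Krt7, a keratin of simple and ductal epithelia, had one of 0.281 in replicate 1, above 2.55%, and its nearest peak in replicate 2 was 24162 bp away. Neither was in the shorter, stricter list of replicate 1, which held Krt10 and Krt18.

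The other thymic epithelial keratins had no promoter peak in either replicate. Within 500 bp of the TSS of Krt5, Krt8 and Krt14, no base was listed at a false discovery rate under 0.05 in either replicate. The same held for 48 of the 53 keratins, and for 35.2% of all genes. Beyond Krt18, Krt10, Krt25 and Krt7, Krt4 had 11 listed bases in replicate 2, the lowest at 0.0497, and no peak. Part of these windows is not unique in the genome: 92.2% of 32-base words were unique at Krt5, 77.8% at Krt8, 77.8% at Krt14 and 81.4% at Krt18. Over all 53 keratin promoters the share ran from 65.7% at Krt33a to 100%, with a median of 98.7%, and 14 were under 90%. Close copies such as Krt6a and Krt6b, or Krt81, Krt83 and Krt86, may therefore share reads, and their absence of peaks is uncertain to that extent.

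Keratin promoters were poorer in CpG than the average promoter. The ratio of observed to expected CpG was taken within 500 bp of the outermost TSS, set at the upstream end of the gene record. It had a median of 0.302 over the keratins, between 0.0779 and 0.583, and of 0.557 over all genes. The lowest value, at Krt7, does not describe the promoter counted there. It was taken around base 101411043, while the Krt7 promoter peak of replicate 1 lay at chr15:101412309-101412388 and had a ratio of 0.476. A ratio under 0.4 was found at 40 of 53 keratins (75.5%) and at 39.7% of all genes. Among genes with such a ratio, 1 of 40 keratins (2.50%), Krt10 by its second TSS, was open in both replicates, and 19.4% of all genes were. Both shares count a peak at any TSS, whereas the ratio belongs to the outermost one. At Krt10 the ratio of 0.346 was taken at the outermost TSS, which had no peak, so its peak is not at a CpG-poor promoter. The ratio was 0.546 at Krt18, 0.378 at Krt8, 0.291 at Krt14 and 0.271 at Krt5, so that Krt18 was the CpG-richest of the thymic epithelial keratins.

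The letters TATAAA occurred between 45 and 15 bp before the outermost TSS, on the gene's strand, at 17 of 53 keratins (32.1%) and at 2.67% of all genes. None of the 4 thymic epithelial keratins was among them. The 17 included Krt10 and Krt12 of the epidermis and cornea, and Krt25 to Krt28 of the inner root sheath. The 80 bases around 4 starts are printed to compare them, each from 60 bp before the TSS to 19 bp after it on the gene's strand, with TATAAA in capitals. They are chr15:102028120-102028199 (plus strand) for Krt18, chr15:101712879-101712958 (minus) for Krt5, chr11:100207529-100207608 (minus) for Krt14 and chr11:99389345-99389424 (minus) for Krt10.
Krt18 start: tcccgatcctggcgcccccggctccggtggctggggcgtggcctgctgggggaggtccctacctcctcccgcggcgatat
Krt5 start: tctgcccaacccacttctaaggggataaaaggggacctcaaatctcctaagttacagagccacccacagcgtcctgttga
Krt14 start: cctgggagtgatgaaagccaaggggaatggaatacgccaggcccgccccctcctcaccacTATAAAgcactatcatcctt
Krt10 start: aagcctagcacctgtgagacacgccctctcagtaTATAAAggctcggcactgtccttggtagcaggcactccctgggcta

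In Krt10 the letters stand from 26 to 21 bp before the TSS. In Krt14 they begin at the annotated TSS itself, so they fell outside the window searched. Neither Krt18 nor Krt5 holds them in the stretch shown. A match is a description of letters and not of a bound site.

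Around the genes, peaks were fewer than in the spans of other genes, and uneven. In the gene body and 25 kb to each side, the keratins had a median of 3.07 peaks per 100 kb (mean of both replicates, range 0 to 15.6), whereas all genes had 7.14 and the other genes of chromosomes 11 and 15 had 10.7. By replicate the keratin medians were 3.30 and 3.46, and those of all genes 6.58 and 7.51. These counts include promoter peaks, which most keratins lacked. With only peaks more than 500 bp from any TSS, the gap was smaller, with medians of 3.07 over keratins and 4.44 over all genes. By replicate these were 3.26 and 3.46 over keratins, and 3.775 and 4.91 over all genes. Thymic epithelial keratins had a median of 5.56 (0.896 to 15.6) and the other keratins 3.07 (0 to 15.5), so the ranges overlapped almost entirely. Footprints followed the peaks, with a median of 6.78 per 100 kb over keratins and 22.7 over all genes. Neighbouring keratins share flanks and therefore peaks, and are not independent of each other.

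Of the 53 keratins, 14 (26.4%) had no peak in this span in either replicate, against 10.5% of all genes. They were Krt13, Krt15, Krt16, Krt2, Krt4 and Krt79 of stratified epithelia, and Krt31, Krt32, Krt34, Krt35, Krt36, Krt39, Krt40 and Krt71 of hair and root sheath. Of these, 10 lie on chromosome 11 and 4 on chromosome 15. None of the thymic epithelial keratins was among them.

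**Figure D3:**
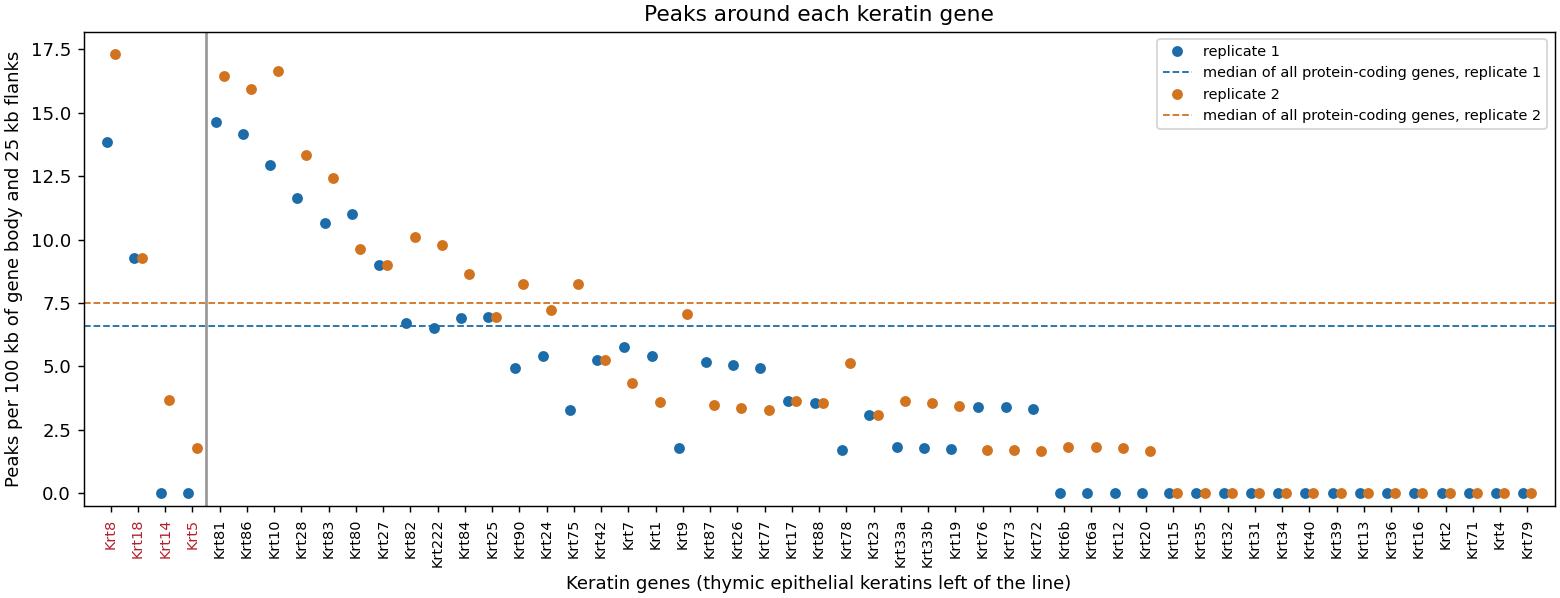
Peaks per 100 kb of gene body and 25 kb flanks for each of the 53 keratins in replicate 1 (blue) and replicate 2 (orange), thymic epithelial keratins left of the vertical line. Dashed lines are the medians of all protein-coding genes, 6.58 and 7.51. Krt8 and Krt18 lie above both lines, Krt5 and Krt14 below them, and 14 other keratins at 0 in both replicates.

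The thymic epithelial keratins split by pair. Krt8 had 8 peaks in its span in replicate 1 and 10 in replicate 2, or 13.8 and 17.3 per 100 kb, the highest mean of all 53 keratins. Krt18 had 5 in each replicate, 9.28 per 100 kb. Krt5 had 0 and 1, and Krt14 had 0 and 2. Footprints numbered 23 and 32 around Krt8, 13 and 11 around Krt18, 0 and 1 around Krt5, and 0 and 3 around Krt14. Peaks per 100 kb at Krt8 and Krt18 were above the medians of all genes in both replicates, and at Krt5 and Krt14 below them. Footprints per 100 kb at Krt18 were 24.1 in replicate 1, above the median of all genes of 20.2, and 20.4 in replicate 2, below the median of 24.6. Krt8 and Krt18 are neighbours, and their spans overlap.

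The single peak of Krt5, 0.282 in replicate 2, lay 8594 bp from its TSS beyond the end of the gene. The peaks of Krt14, 0.587 and 0.196 in replicate 2, lay beyond the end of the gene towards Krt9 and in an intron. None of these had a counterpart in replicate 1.

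Next to Krt8 in rank were Krt81 with 15.5 peaks per 100 kb and Krt86 with 15.04, a pair of type II hair keratins that are neighbours and share their peaks. Both had 8 peaks in replicate 1 and 9 in replicate 2. Krt10 followed at 14.8, and these 4 values differ by less than the replicates of any one of the genes do.

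The 53 spans merged into 4 regions of 1.35 Mb in all. They held 57 distinct peaks in replicate 1 and 68 in replicate 2, or 42.2 and 50.3 per Mb, against 37.9 and 42.2 per Mb over the sequenced bases of the autosomes and chromosome X. The regions were thus not sparser than the genome as a whole. On chromosome 11 the keratin regions had 32.9 and 44.8 peaks per Mb, below the 63.9 and 68.7 of the chromosome, and on chromosome 15 they had 51.3 and 55.7, above its 42.6 and 46.02. Region 1, chr11:99207761-99568158 with 12 genes from Krt222 to Krt40, held 17 and 21 peaks. Region 2, chr11:99986195-100294871 with 15 genes from Krt33a to Krt42, held 5 and 9, the lowest density of the 4. Region 3, chr15:101322444-101598904 with 11 genes from Krt80 to Krt75, held 21 and 23. Region 4, chr15:101651023-102057027 with 15 genes from Krt6b to Krt18, held 14 and 15, and most of these lay at its Krt8 and Krt18 end.

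**Figure D4:**
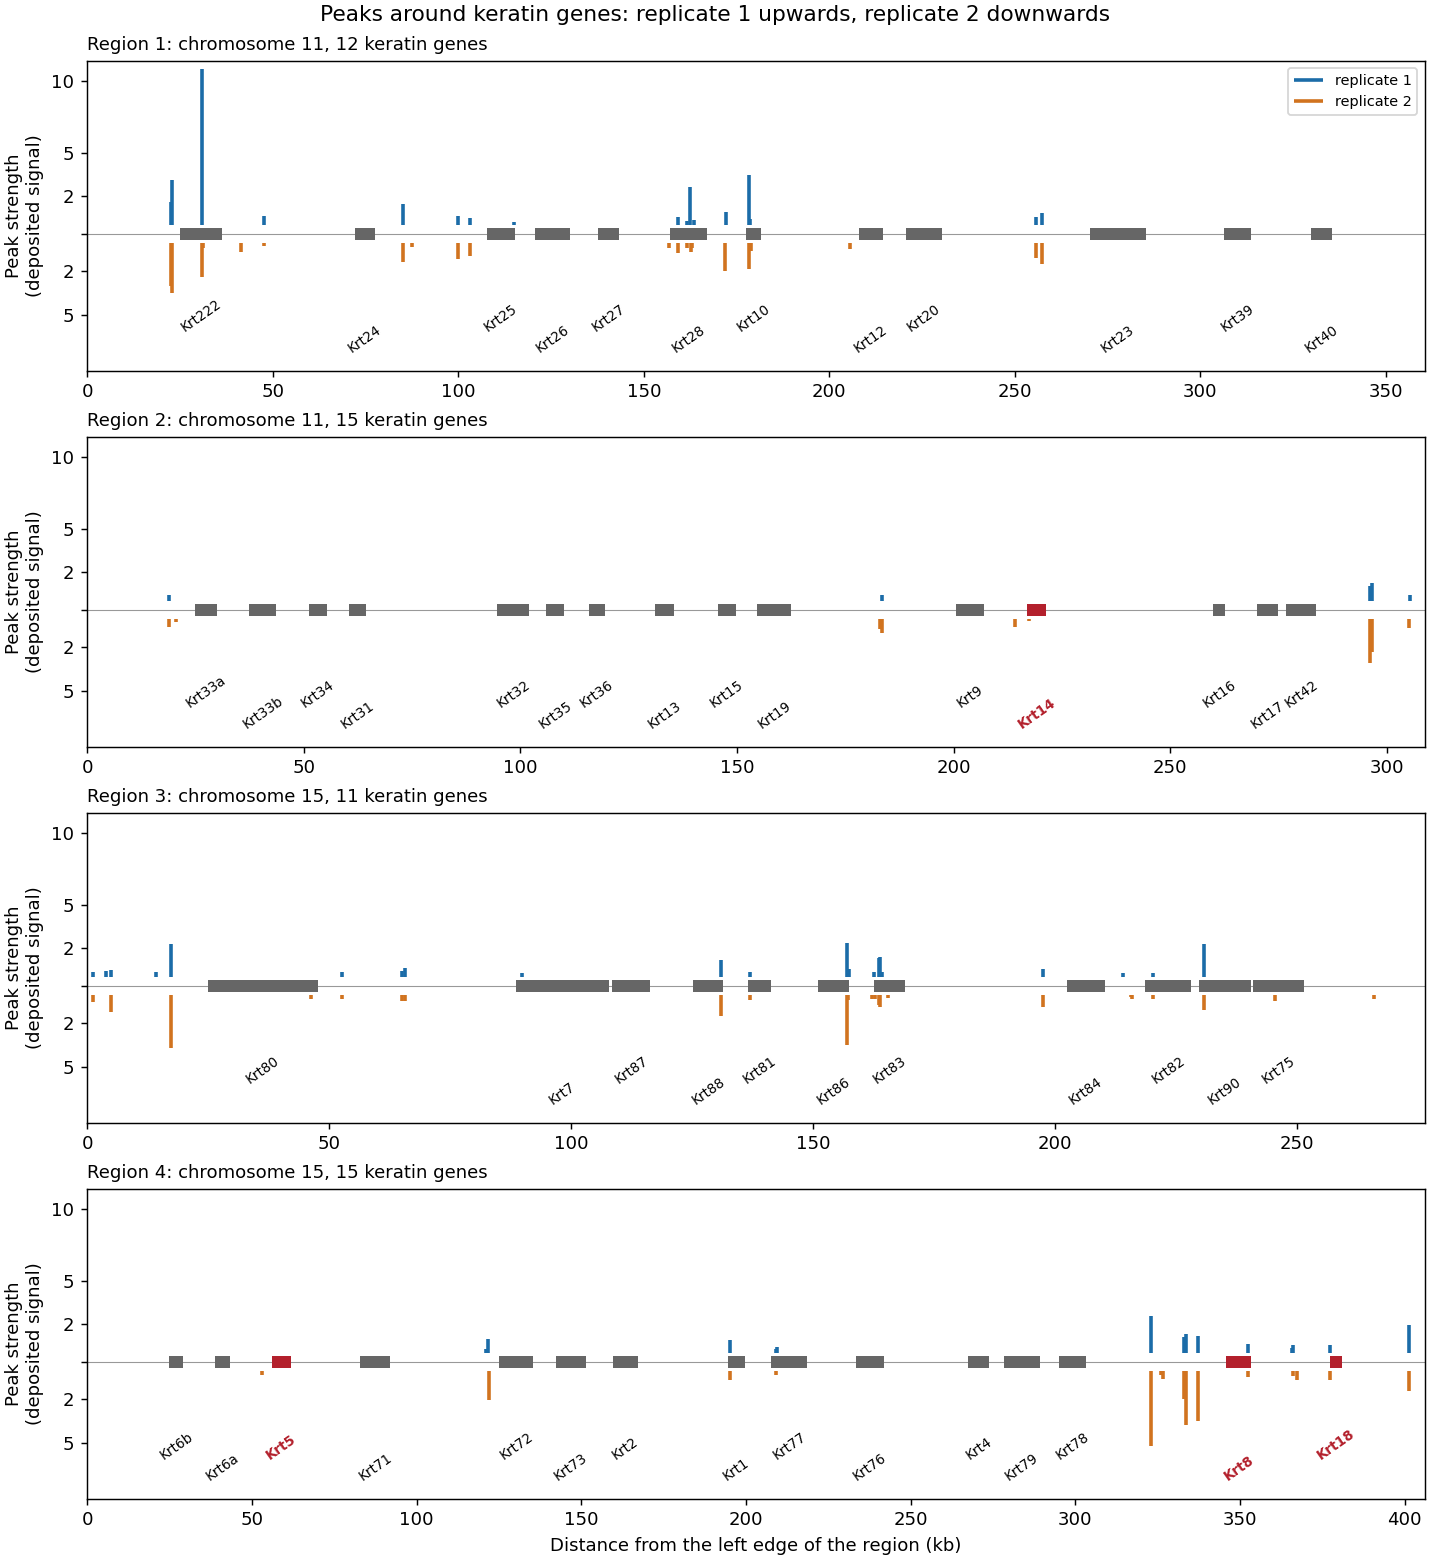
The 4 keratin regions to scale, with distance from the left edge in kb, genes as boxes (thymic epithelial keratins in red) and peaks as vertical lines whose length is the deposited strength, replicate 1 upwards and replicate 2 downwards. Lines start at the edge of the gene track, so the axis is counted from there. Peaks are nearly absent over the hair and stratified keratins of region 2 and gather between Krt78 and Krt18 in region 4.

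The longest stretch without a peak in either replicate was chr11:100006881-100169120, 162 kb that hold 10 keratins from Krt33a to Krt19. Krt19, a simple epithelial type I keratin, thus had no peak nearer than 23.4 kb and 23.0 kb. Of the 9456 peak-free stretches of chromosome 11, 85 were longer, and their median was 2.00 kb. On chromosome 15 the longest within the keratins was chr15:101860679-101973740, 113 kb with Krt76, Krt4, Krt79 and Krt78, where 175 of 5511 stretches were longer. Another on chromosome 11, of 109 kb, held Krt23, Krt39 and Krt40. The 23 Krtap genes, which encode matrix proteins of hair and lie within the chromosome 11 cluster, had an open promoter in 0 of 23 cases and a median of 0.980 peaks per 100 kb, and 17 of them (73.9%) held TATAAA before the TSS.

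Peaks of the 4 regions were weaker than the average peak in replicate 1 and close to it in replicate 2, with median strengths of 0.587 and 0.622 against 0.795 and 0.645 over all peaks. They recurred between replicates about as often as peaks in general: 80.7% of those of replicate 1 and 67.7% of those of replicate 2 met a peak of the other, against 75.2% and 66.4% of all peaks. The regions held 144 footprints in replicate 1 and 179 in replicate 2, of which 136 and 168 lay in peaks. Of all footprints of the regions, 56.9% and 43.6% were shared, against 50.9% and 45.5% of all footprints.

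The peaks between Krt78 and Krt8 included the strongest of region 4. It measured 2.62 in replicate 1 and 5.27 in replicate 2, 19514 and 19454 bp from the TSS of Krt78 and in no protein-coding gene. Inside it, a footprint of 47 bp in replicate 1 and 45 bp in replicate 2 coincided over 45 bp, and a second was shared over 15 bp. The bases that both peaks cover, chr15:101973801-101973940 on the plus strand, are printed with those shared footprints in capitals, since this is the widest protected stretch of the strongest peak near a thymic epithelial keratin.
Peak between Krt78 and Krt8: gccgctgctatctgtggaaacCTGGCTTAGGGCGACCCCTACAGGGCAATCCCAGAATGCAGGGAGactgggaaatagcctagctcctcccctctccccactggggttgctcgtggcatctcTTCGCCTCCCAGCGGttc

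The first footprint holds the letters CCCAGAATG, which form part of the known binding sequence of the factor ZNF143. They were picked after the footprint was seen. The same letters, on either strand in the 200 bp centred on a peak, occur at 0.327% of all peaks of replicate 1 and 0.319% of replicate 2. Among the 57 and 68 peaks of the keratin regions, only the peak printed here holds them. It is the peak they were picked from, so that count was fixed in advance.

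Nearer to Krt8 there were 3 further shared peaks beyond the end of the gene. Replicate 1 gave them 1.10, 1.35 and 1.18, and replicate 2 gave 2.01, 3.81 and 3.48. The second of them held a match to the consensus of CTCF, the factor that anchors chromatin loops. Inside Krt8, intron 1 had a shared peak of 0.618 and 0.420, the one 1 kb from the TSS. Between Krt8 and Krt18 a shared peak of 0.571 and 0.369 had its midpoint 11070 and 11076 bp from the Krt18 TSS. On the far side of Krt18 a shared peak of 1.93 and 1.42 completed the set.

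The intron 1 peak of Krt8 is printed over the bases of both replicates, chr15:102003322-102003468 on the plus strand, because it is the open site nearest to the start of the gene. Capitals mark matches to the AP-1 letters TGANTCA and to the SP/KLF letters GGGCGG, searched on both strands.
Krt8 intron 1 peak: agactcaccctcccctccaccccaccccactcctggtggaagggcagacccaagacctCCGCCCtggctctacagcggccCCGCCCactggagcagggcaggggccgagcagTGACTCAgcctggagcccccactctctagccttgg

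Replicate 1 had a footprint of 21 bp there and replicate 2 one of 8 bp, and they shared 6 bp, from base 102003407 to 102003412. The second SP/KLF match, at bases 102003402 to 102003407, met them at 1 base, and the AP-1 match, at bases 102003434 to 102003440, lay outside them.

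Several keratins had peaks inside later coding exons, a feature examined after the values had been seen. Such an exon peak can also lie at the start of a short transcript, as at Krt10 in the basic annotation and at Krt222 and Krt1 with all annotated transcripts. A peak in coding sequence after the first coding exon was present in both replicates at 10 of 53 keratins (18.9%), against 13.6% of genes with 3 or more exons. A peak in the last exon was present at 7 of 53 (13.2%), against 6.76%. A peak in the first exon was present at 1 of 53 (1.89%), against 50.4%. Of these shares, that of first exons stood farthest from the value over all genes.

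In replicate 1 the strongest of these, and of all peaks in the 4 regions, was in exon 3 of Krt222, a gene for a keratin-like protein. It measured 10.8 in replicate 1 and 2.39 in replicate 2, the widest gap between replicates among these peaks. The bases that both peaks cover, chr11:99238561-99238780 on the plus strand, are printed with a match to the ETS letters AGGAAGT, here on the minus strand, in capitals. That match, at bases 99238648 to 99238654, lay outside the footprints of both replicates.
Krt222 exon 3 peak: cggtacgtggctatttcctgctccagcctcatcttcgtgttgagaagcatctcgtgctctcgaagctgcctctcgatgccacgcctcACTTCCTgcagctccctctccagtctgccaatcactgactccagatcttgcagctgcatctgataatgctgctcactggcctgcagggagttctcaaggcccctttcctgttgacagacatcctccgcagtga

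Exon 9 of the hair keratin Krt86 had 2.41 and 3.53, the strongest coding-exon peak of replicate 2. Exon 9 of Krt90 had 2.30 and 1.09, and exon 5 of Krt88 had 1.18 and 1.46. The tail exons of Krt1 and Krt77, type II keratins of the epidermis with glycine-rich tails like that of Krt10, had 0.945 and 0.656 and 0.281 and 0.299. Like the Krt10 peak, these were rich in GC, at 71% and 71.2% in Krt1 and 70.8% and 68.1% in Krt77. At neither gene did a peak lie within 500 bp of a TSS of the basic annotation set. With all annotated transcripts, the Krt1 and Krt222 peaks lie within 500 bp of a TSS in both replicates.

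**Figure D5:**
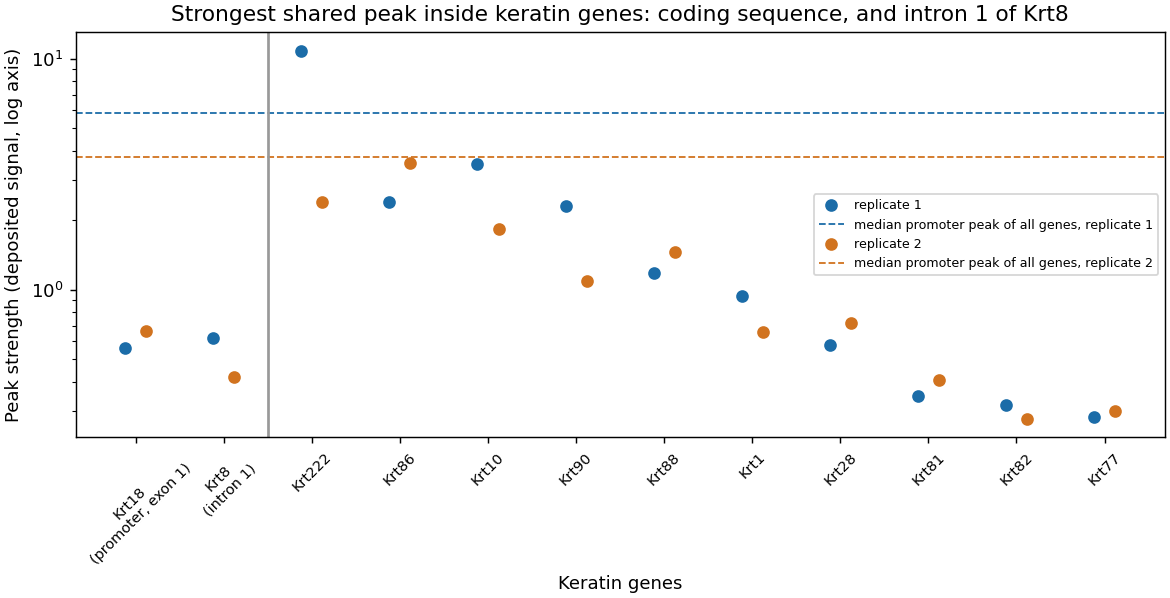
Strength of the strongest peak shared by both replicates in the coding sequence of each keratin, and in intron 1 of Krt8, on a log axis, with replicate 1 in blue and replicate 2 in orange and thymic epithelial keratins left of the line. Dashed lines are the median promoter peaks of all genes, 5.80 and 3.74. In replicate 2 every point lies under its line, and in replicate 1 Krt222 alone lies above.

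Motif letters were searched in the 200 bp centred on each region peak, of which 7 of 57 and 5 of 68 were at promoters. The median widths of these peaks were 180 and 200 bp, so at narrower peaks a counted match can lie outside the peak. CTCF consensus matches were in 4 of 57 peaks (7.02%) and 5 of 68 (7.35%), against 5.39% and 6.23% of all peaks. The 10-letter half-site of the p53 family, to which p63 of basal epithelia belongs, was in 10.5% and 7.35%, against 6.57% and 6.53%. The AP-1 letters were in 1.75% and 4.41%, against 5.72% and 5.75%. The letters AACCNGTT of the epithelial Grainyhead-like factors were in 0 of 57 and 0 of 68, against 1.32% and 1.43%. RUNX letters (TGTGGTT) were in 5.26% and 2.94%, against 7.31% and 6.58%, and ETS letters in 8.77% and 7.35%, against 11.1% and 9.31%. The SP/KLF letters were in 14.0% and 14.7%, below the 20.3% and 17.0% of all peaks and above the 11.4% and 8.90% of distal peaks. With so few peaks, 1 peak more or less moves these shares by more than 1 percentage point.

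By epithelial role, the keratin lists were alike in having few open promoters. Among the other simple epithelial keratins 0 of 5 had a promoter peak in both replicates, among stratified epithelial keratins 1 of 17, and among hair and root sheath keratins 0 of 23. Peaks per 100 kb had medians of 3.07, 0.921 and 2.73 in these lists. Genes whose products work with keratins had open promoters at shares nearer to the 58.6% of all genes. Of 12 genes of the plaques that anchor keratin filaments, 7 (58.3%) were open at the promoter in both replicates, and the strongest was Jup, which encodes plakoglobin, at 19.3 and 7.39. Plec, which encodes the linker plectin, had 14.99 and 5.38. Dsp, which encodes desmoplakin, had 0.608 and 0.524, close to the Krt18 values. Pkp1, Pkp3, Eppk1 and Macf1 had none in either replicate. Several of these genes are expressed outside epithelia too, and the part of other cell types in their peaks was not tested.

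Of 14 other intermediate filament genes, 5 (35.7%) were open in this sense, among them Vim, which encodes the filament of mesenchymal cells and lymphocytes, at 2.52 and 2.22, and Lmna, which encodes a nuclear lamin, at 1.45 and 1.10. Of 13 regulators of epithelial genes, 9 (69.2%) were. Grhl1 had 9.95 and 4.34 and Klf4 had 7.23 and 4.76, whereas Trp63, which encodes p63, had no promoter peak in either replicate and 0 and 1 peaks in its span. Krt18 thus stood with the weaker of these promoters, such as Esrp1, an epithelial splicing regulator, at 0.447 and 0.317.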

How the data were processed

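The labels' file listings state that each sample's peaks, false discovery rate track and footprints derive from its own mm10 alignments, so replicates were not pooled. The sources used here do not name the aligner or callers, their settings or the treatment of CAST alleles. The signal per peak is a value that the authors deposited, and it served to order peaks inside a replicate. The deposited q-value column lists only runs of bases under 0.05. Footprints were used by position. The longer of 2 deposited peak lists was used, and the shorter served as a stricter alternative. The annotation was the GENCODE M21 basic set, with 27 duplicated symbols left out, and the sequence GRCm38.p6, the assembly of mm10. All printed sequences were read from that genome.

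The keratins and gene lists were chosen with earlier results of these data known. Named genes were Krt5, Krt8, Krt14 and Krt18, keratins with a promoter peak in either replicate, the extremes of peak density, neighbouring genes sharing their peaks, and up to 4 open and 4 closed members of a list. Keratins named for coding-exon peaks, distances, footprints or sequence were chosen after their values were seen, as was the CCCAGAATG search. Alternatives varied the promoter window, TSSs, transcripts, flanks, peak list, overlap and replicates.

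A word was called unique when its 32 bases, on either strand, occurred once on the assembled chromosomes. The ratio of observed to expected CpG was taken over 500 bp to each side of the outermost TSS. That TSS was set at the upstream end of the gene record, also in the TATAAA search and the word shares of promoters. At some genes, such as Krt7 and Krt19, it differs from the TSS by which promoter peaks were counted. No test was made, since there is 1 group and genes are not replicates. Interval counting was checked on simulated peaks. Python 3.11.15, numpy 2.4.6, pandas 2.3.3, numba 0.67.0 and matplotlib 3.10.9 were used.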

Additional observations from a re-analysis of the deposited data

How the results depend on the processing

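The count of keratins with a promoter peak in both replicates was 2. It was 1 (Krt18) with the outermost TSS only and 4 with all annotated transcripts, which added Krt222 and Krt1, and leaving out 1 replicate gave 2 to 4. The corresponding shares of all genes were 55.1% and 60.7%. It stayed at 2, or 3 with a window of 2000 bp, under the other windows, the shorter peak list and midpoints. Among thymic epithelial keratins the 2000 bp window gave 2 in place of 1, by adding Krt8, and each other alternative gave 1, so leaving out a replicate gave 1 to 1.

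The median of 3.07 peaks per 100 kb around keratins became 1.27 with flanks of 10 kb, 5.08 with flanks of 100 kb, 0 in gene bodies alone and 1.73 in the shorter list, where all genes had 7.33, 6.94, 6.56 and 5.05. Peaks more than 500 bp from any TSS gave 3.07, where all genes had 4.44. Leaving out 1 replicate gave 3.30 to 3.46. The footprint median of 6.78 became 0 with flanks of 10 kb, 13.3 with 100 kb and 0 in gene bodies, where all genes had 23.3, 21.4 and 15.7, and leaving out 1 replicate gave 7.12 to 8.20. Keratins were lower than all genes under every one of these settings. The mean share of region peaks found in both replicates, 74.2%, became 58.0% when an overlap of 50% of each peak was required. The cause of these shifts was not tested. No paired analysis was possible because the series has 1 group. With the read depth unknown, a keratin promoter without a peak is one not detected as open.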
